A study of Mus musculus with 8 samples.

Results

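miR-210 is the microRNA most closely tied to low oxygen: its gene is switched on by hypoxia-inducible factor (HIF), and its mature form represses mRNAs of mitochondrial iron-sulfur cluster assembly and respiration, such as Iscu, and of the ephrin ligand Efna3. In cardiomyocytes it is known for limiting cell death under hypoxia. A hairpin releases 2 strands, a guide that is loaded into Argonaute and a passenger that is mostly degraded, and for miR-210 the guide is the 3p arm. The members described here are both arms, mmu-miR-210-3p and mmu-miR-210-5p, chosen by name, 2 of the 697 mature mouse miRNAs in the count tables, and both are present in all libraries.

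The libraries came from isolated cardiomyocytes of 4 sham-operated mice and 4 mice with transverse aortic constriction (TAC), a narrowing of the aorta that loads the left ventricle with pressure. The mice were males of 2 months at surgery, and hearts were taken 14 weeks after it, although the study's methods also give 14 weeks as the age at collection, and were digested on a Langendorff perfusion system, with 1 of the 4 tubes of cells from each heart going to miRNA-seq. Strain and genotype are not given in the sources used here, and neither oxygen nor HIF was measured in these libraries. Each library holds the cells of 1 heart, so the 4 values of a group are separate animals.

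Both arms have an entry in RefSeq on GRCm38.p6, and their sequences are shown because the seed, bases 2 to 8 in capitals, sets which mRNAs a strand can pair with.
miR-210-3p: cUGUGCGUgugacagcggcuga
miR-210-5p: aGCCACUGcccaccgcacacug
Among the 1679 mature mouse miRNAs of the RefSeq table, 0 others share the seed of either arm, even when only bases 2 to 7 are compared, so no other counted miRNA with an entry there carries the miR-210 seed. Both arms are 22 bases long. The 3p arm is 63.6% G or C, against a median of 47.6% over the 192 tested miRNAs with an entry, and 13 of those, itself included, are at or above it. The 110-base hairpin Mir210 lies on the minus strand at chr7:141221384-141221493, the 3p arm at chr7:141221407-141221428 and the 5p arm at chr7:141221445-141221466. In GENCODE vM21 it overlaps 0 other genes and is thus intergenic there, 2726 bases from the end of Rassf7 and 7291 bases from the start of Phrf1, both on the plus strand.

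miR-210-3p was a low-abundance miRNA in these cardiomyocytes. It had 2024 counts over the 8 libraries, rank 178 of the 223 miRNAs with a mean above 100 counts, and in the median library miR-1a-3p, the dominant miRNA of heart muscle, had 2840 times as many counts. In counts, the sham libraries held 294, 249, 279 and 154 in the order of mouse 1 to 4, and the TAC libraries 320, 280, 185 and 263. Divided by the miRNA total of each library, which ran from 4005668 to 7798943 counts, this gave 63.5, 46.2, 56.9 and 38.4 CPM (counts scaled to a library total of 1000000) in sham and 58.1, 35.9, 29.2 and 36.4 in TAC. TAC mice 2, 3 and 4 lay below every sham mouse, and TAC mouse 1 lay between the highest and the second highest of the sham mice, so the groups overlapped. Of the 223 tested miRNAs, 30.9% had groups that did not overlap on this scale.

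Sham mice averaged 51.3 ± 11.1 CPM (SD, n = 4), and TAC mice 39.9 ± 12.6 CPM (SD, n = 4). On log2(CPM + 1) the TAC mean was lower by a difference of -0.37, within the spread of the animals (two-sided exact permutation test, p = 0.171, where the smallest p that 4 against 4 allows is 0.0286). Animals of 1 group differed by more than counting error. The 95% exact binomial interval, which covers counting error only, was 56.5 to 71.2 CPM in sham mouse 1 and 32.6 to 45.0 in sham mouse 4, and it was 51.9 to 64.8 in TAC mouse 1 and 25.1 to 33.7 in TAC mouse 3. The highest library was 1.65 times the lowest in sham and 1.99 times in TAC, a coefficient of variation of 21.7% and 31.5% where counting alone gives 6.4% and 6.18%. The standard deviation of log2(CPM + 1) about the group means was 0.37 for miR-210-3p and 0.25 for the median tested miRNA, and 52 of the 223 tested miRNAs (23.3%) varied more.

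**Figure D1:**
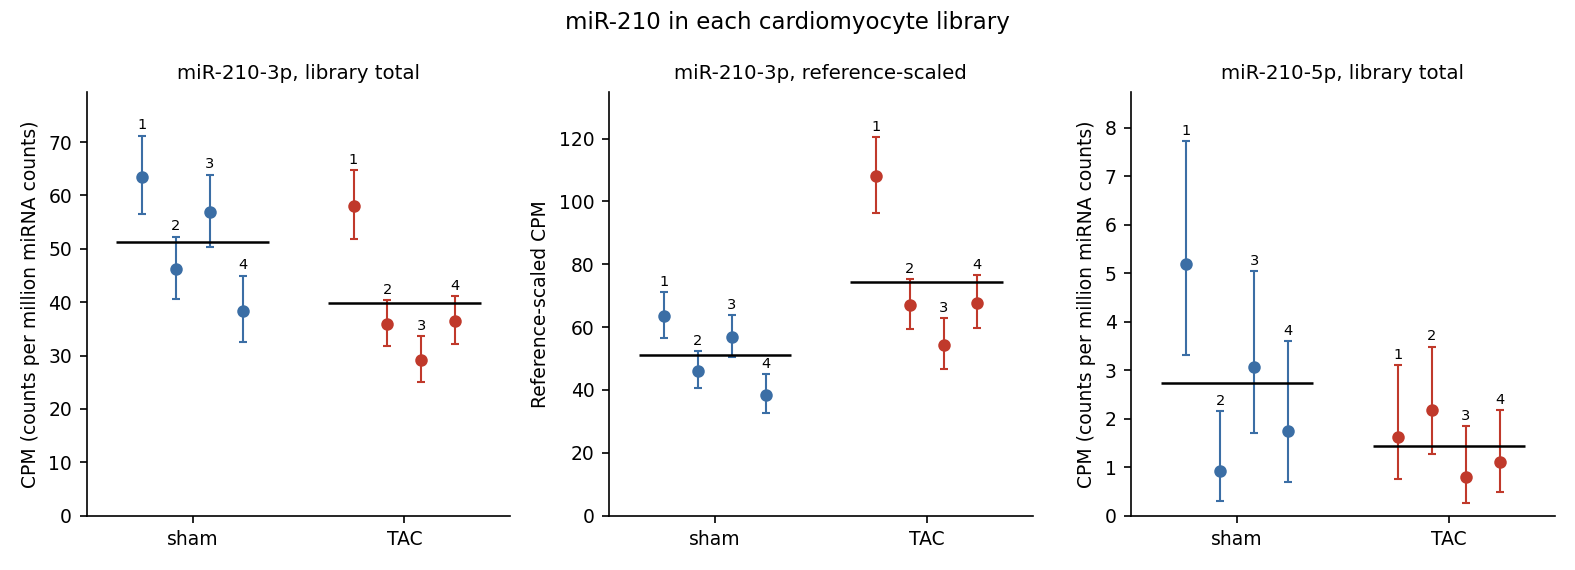
miR-210 in the 8 libraries: miR-210-3p by library total (left) and reference-scaled (middle), and miR-210-5p by library total (right), in CPM, for sham (blue) and TAC (red). Points are mice, numbered 1 to 4, bars are 95% exact binomial intervals of counting error and black lines are group means; the groups overlap in all 3 panels, and mouse 1 is the highest of its group for miR-210-3p.

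The study scales its libraries to a pair of references, the endothelial miR-126a-3p, and miR-19b-3p, made by most cells, and how the factor was formed is not given in the sources used here. It describes both references as unaltered and states that QPCR verified this. Here 1 factor per group was used. Relative to library totals the mean of both references was lower in TAC, so that the CPM of the TAC libraries was divided by 0.537 and that of sham left as it was. On this scale miR-210-3p was at 108.0, 66.9, 54.4 and 67.8 CPM in TAC mice 1 to 4, a mean of 74.3 ± 23.4 (SD, n = 4), against the same 51.3 ± 11.1 (SD, n = 4) in sham. Now 3 TAC mice lay above every sham mouse, TAC mouse 3 lay among them, and the groups again overlapped, where 55.2% of the tested miRNAs had groups that did not. The difference on log2(CPM + 1) was 0.51 (p = 0.186, two-sided exact permutation test over 70 arrangements, each with its own scaling factor).

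In edgeR's quasi-likelihood test with this scaling, miR-210-3p was at 0.53 on the log2 scale, TAC over sham (adjusted p = 0.0826, standard error 0.25), a fold of 1.45 with a 95% interval from 0.985 to 2.13. The interval takes the factor as known and leaves out the spread of the references. With a factor for each library in its place, the log2 fold change was 0.47 (standard error 0.31, adjusted p = 0.213 in edgeR). With 1 factor per group miR-210-3p was not called, since a call needs a fold above 1.7 as well as an adjusted p under 0.05, which 84 of the 223 tested miRNAs (37.7%) had, 82 of them higher and 2 lower in TAC. With library totals alone the log2 fold change turned to -0.36 (adjusted p = 0.292 in edgeR), a fold of 0.777 with an interval from 0.529 to 1.14, where 24 of 223 (10.8%) were called. With edgeR's TMM normalization it was -0.14 (adjusted p = 0.71), a fold of 0.905 with an interval from 0.617 to 1.33, where 13 of 223 (5.83%) were called. The direction of miR-210-3p therefore rested on the scaling, and each of these 3 intervals holds a fold of 1. A fold of 2 lies inside the interval of the reference scaling and outside those of library totals and TMM.

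Single libraries moved the reference-scaled value. Without sham mouse 1, the sham animal with most miR-210-3p, the log2 fold change was 0.77 (adjusted p = 0.0261 in edgeR). It was then called higher, at a fold just past 1.7. That mouse also had the least miR-126a-3p in sham, 25759 CPM against 36421 to 50698, so leaving it out changes the factor too. With library totals the same removal moved the value from -0.36 to -0.24 (adjusted p = 0.485 in edgeR), a fit added after seeing the data. Without TAC mouse 1 the reference-scaled log2 fold change was 0.30 (adjusted p = 0.25 in edgeR). With miR-19b-3p as the only reference the adjusted p was 0.0406 in edgeR, at a log2 fold change of 0.64, which is under the fold of 1.7. With miR-126a-3p as the only reference the log2 fold change was 0.43 (adjusted p = 0.164 in edgeR).

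**Figure D2:**
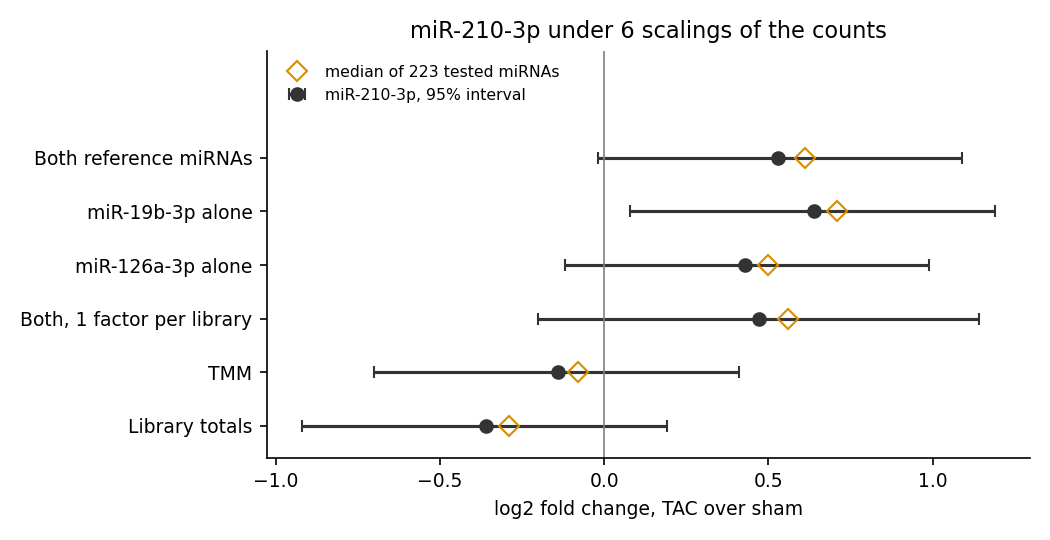
Log2 fold change of miR-210-3p, TAC over sham, from edgeR under 6 scalings of the counts (black points, bars are 95% intervals), with the median of the 223 tested miRNAs under the same scaling (orange diamonds). miR-210-3p goes from 0.53 with both reference miRNAs to -0.36 with library totals and stays beside the median, which goes from 0.61 to -0.29.

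A factor on all TAC libraries shifts every log2 fold change alike, so the rank of a miRNA is fixed by construction between the reference scaling and library totals, and the distance to the median describes miR-210-3p without that factor. Over all tested miRNAs the median on the log2 scale was 0.61 with the reference scaling, -0.08 with TMM and -0.29 with library totals, and miR-210-3p minus the median was -0.07, -0.06 and -0.07 in that order. Of the other tested miRNAs, 91 had a lower and 131 a higher log2 fold change under each of these 3 scalings, which leaves 40.8% of the tested miRNAs below it. With a reference factor for each library 84 were lower, so the difference of miR-210-3p between the groups was close to that of the middle of the miRNAs.

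**Figure D3:**
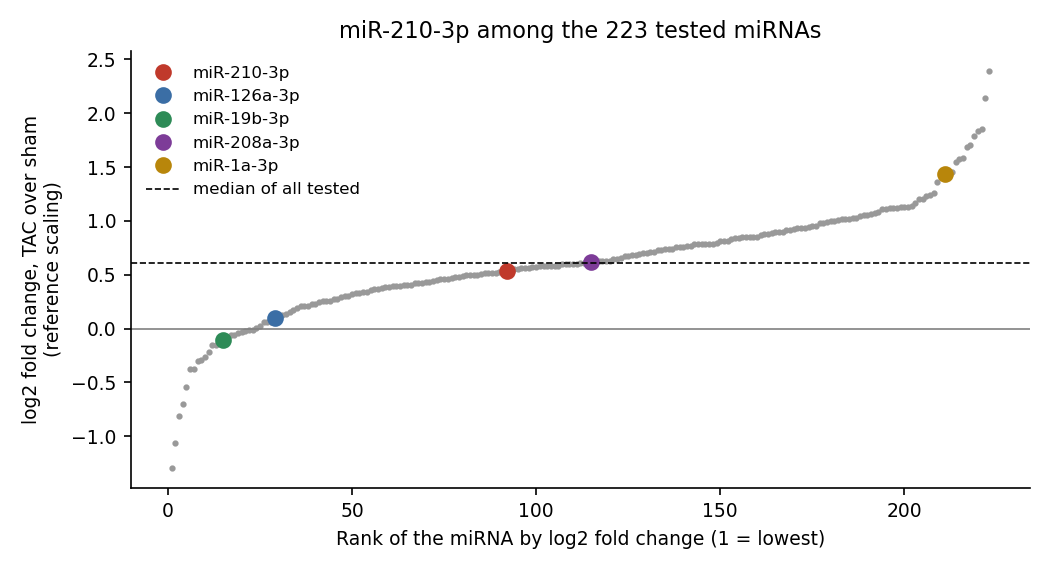
The 223 tested miRNAs in order of their log2 fold change with the reference scaling, TAC over sham (vertical axis), with miR-210-3p, the references (miR-19b-3p and miR-126a-3p), and the cardiomyocyte miRNAs miR-208a-3p and miR-1a-3p in colour. miR-210-3p, at 0.53, lies just under the dashed median of 0.61, above both references and below miR-1a-3p.

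Of the miRNAs beside it in abundance, those ranked 175 to 177 and 179 to 181, log2 fold changes with the reference scaling ran from -0.04 in miR-532-5p to 1.85 in miR-200b-3p. miR-872-5p (0.73, adjusted p = 0.00588 in edgeR) and miR-200b-3p (adjusted p = 0.0198) passed an adjusted p of 0.05. The size of the latter rests on TAC mouse 4, with 995 counts against 117 to 209 in the other TAC mice and 79 to 177 in sham, and without that mouse it was 0.82 (adjusted p = 0.0153 in edgeR). Without sham mouse 3 its adjusted p was 0.0643. miR-193b-3p (0.65, adjusted p = 0.0526), miR-203-3p (0.40, adjusted p = 0.116), miR-501-3p (0.22, adjusted p = 0.372) and miR-532-5p (adjusted p = 0.903) did not. miR-872-5p thus passed in the same fit at a like depth.

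A ratio of counts within a library needs no scaling. miR-210-3p was set against 4 miRNAs made by heart muscle cells: miR-1a-3p, its partner miR-133a-3p, and miR-208a-3p and miR-499-5p, which lie in introns of myosin genes. Against their geometric mean, the log2 ratio was -6.91, -7.22, -6.84 and -7.63 in sham mice 1 to 4 and -6.98, -7.71, -8.02 and -7.62 in TAC mice 1 to 4. TAC mouse 1 lay among the sham mice, sham mouse 4 among the TAC mice, and the means of -7.15 ± 0.36 (SD, n = 4) and -7.58 ± 0.44 (SD, n = 4) differed by -0.43 (standard error 0.28, two-sided exact permutation test, p = 0.171, adjusted p = 0.333 over the 5 ratios compared). Against the single miRNAs the difference was -0.91 for miR-1a-3p, -0.42 for miR-499-5p, -0.30 for miR-133a-3p and -0.10 for miR-208a-3p. The exact permutation p-values were 0.0857, 0.286, 0.2 and 0.8 in that order, at an adjusted p of 0.333, 0.357, 0.333 and 0.8. With library totals miR-1a-3p itself was higher in TAC (log2 fold change 0.54, adjusted p = 0.0318 in edgeR), beside -0.36 for miR-210-3p. All 5 differences were negative, the groups overlapped in each, and none passed 0.05. They share the counts of miR-210-3p and are not independent of each other. The difference against the geometric mean is by construction the mean of the other 4, so its sign adds nothing to theirs. With the reference scaling miR-1a-3p, miR-499-5p, miR-133a-3p and miR-208a-3p had log2 fold changes of 1.44, 0.93, 0.79 and 0.62. Each lies above the median of 0.61 over all tested miRNAs, of which 40.8% lay below miR-210-3p. A negative sign against all 4 is therefore not particular to miR-210-3p. Against the reference miRNAs the sign was opposite, 0.37 for miR-126a-3p (exact permutation test, p = 0.286) and 0.62 for miR-19b-3p (p = 0.114).

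**Figure D4:**
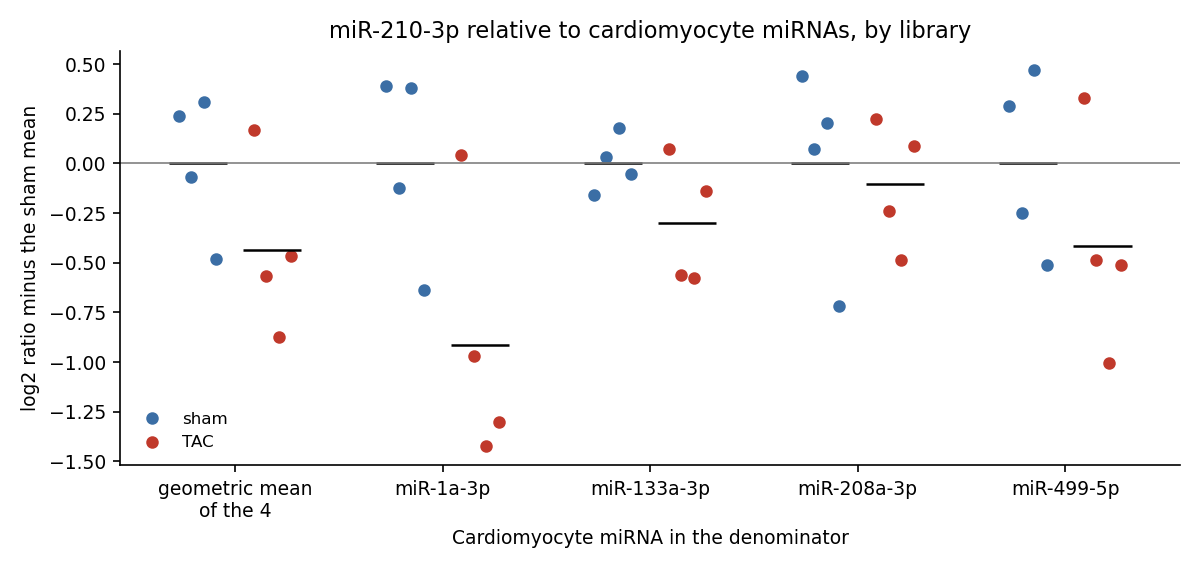
Log2 ratio of miR-210-3p counts to cardiomyocyte miRNAs in each library, shown as the difference from the sham mean, for sham (blue) and TAC (red) mice with group means as black lines. The TAC mean is lowest against miR-1a-3p, which itself was higher in TAC with library totals (log2 fold change 0.54). It is at -0.91 there, where 3 TAC mice lie below every sham mouse and TAC mouse 1 does not. No ratio separates the groups.

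miR-210-5p, the passenger, had 90 counts in all, 24, 5, 15 and 7 in sham mice 1 to 4 and 9, 17, 5 and 8 in TAC mice 1 to 4. Its mean of 11.25 counts a library put it under the minimum of 100 used for the 3p arm, and it was tested among the 409 miRNAs with a mean above 10. By library total it was at 5.19, 0.927, 3.06 and 1.75 CPM in sham and 1.63, 2.18, 0.789 and 1.11 CPM in TAC, with sham mice 1 and 3 above all TAC mice and the other sham mice among them. The means were 2.73 ± 1.86 (SD, n = 4) and 1.43 ± 0.611 (SD, n = 4). With the reference scaling its log2 fold change was -0.02 (standard error 0.54, adjusted p = 0.973 in edgeR), a fold of 0.984 with a 95% interval from 0.434 to 2.23. In this fit 124 of the 409 (30.3%) were called. With library totals it was -0.91 (adjusted p = 0.268) and with TMM -0.60 (adjusted p = 0.523), where 9.29% and 3.42% were called. Its coefficient of variation was 68.1% in sham and 42.8% in TAC, where counting alone gives 28.0% and 32.0%, so both counting error and the spread between animals were large.

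The 2 arms come from the same hairpin, so the share of the passenger does not depend on any scaling. Over all libraries the 5p arm made up 4.26% of the miR-210 counts, 22.5 reads of the guide for each of the passenger. Among the 132 hairpins with both arms in the tables and a mean above 100 counts, the median share of the lesser arm was 2.71%, and 55 had a larger one than miR-210. By library it was 7.55%, 1.97%, 5.1% and 4.35% in sham mice 1 to 4 and 2.74%, 5.72%, 2.63% and 2.95% in TAC mice 1 to 4. TAC mouse 2 was high in its group and sham mouse 2 low in its own, with exact binomial intervals of 3.37% to 9.01% and 0.642% to 4.53%. The means of 4.74% ± 2.3 (SD, n = 4) and 3.51% ± 1.48 (SD, n = 4) differed by -1.23 percent points (two-sided exact permutation test, p = 0.371).

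The miRNAs whose levels across the 8 libraries were most like those of miR-210-3p were miR-212-5p, let-7i-5p, miR-744-5p, miR-185-5p and miR-29a-3p, with Pearson correlations of log2(CPM + 1) of 0.94, 0.94, 0.89, 0.87 and 0.84. They were named as the 5 highest of 222, the points share library and depth, and the values are a description with no test. About the group means the correlations were 0.92, 0.92, 0.86, 0.82 and 0.78, and without sham mouse 1 and TAC mouse 1 they were 0.90, 0.87, 0.76, 0.82 and 0.92. miR-212-5p, of the cluster with miR-132 that is known for promoting cardiac hypertrophy, had 48.4, 38.2, 46.9 and 35.2 CPM in sham mice 1 to 4 and 49.9, 31.4, 29.7 and 27.4 in TAC mice 1 to 4. As in miR-210-3p, mice 1 and 3 were the higher sham animals and mouse 1 stood above the other TAC animals. Between the groups it was at 0.61 on the log2 scale with the reference scaling (adjusted p = 0.0391 in edgeR), and at -0.29 with library totals.

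Other miRNAs tied to low oxygen were read from 2 lists. The first holds 15 miRNAs reported to rise in hypoxic cells, of which 14 were tested and miR-494-3p, at a mean of 25.6 counts, was not. With the reference scaling 9 of the 14 had an adjusted p below 0.05 and were higher, and 0 were lower, against 63.7% and 0.897% of all tested miRNAs. The calls with a fold above 1.7 were 4 of 14, beside 36.8% of all tested miRNAs called higher. They were miR-27b-3p (log2 fold change 1.26) and miR-23b-3p (1.14), which are found in 1 cluster, miR-24-3p (1.12), which does not come from that cluster alone, and miR-26b-5p (0.83). The list's median was 0.59, beside 0.61 for all tested miRNAs. At the other end lay miR-322-5p, the rodent relative of a miRNA induced in hypoxic endothelium, at -0.03 (adjusted p = 0.871 in edgeR). The near-identical pair miR-103-3p (0.19, adjusted p = 0.494) and miR-107-3p (0.18, adjusted p = 0.606) lay near it, and tags of such close relatives can be split between them. With library totals 0 of the 14 had an adjusted p below 0.05 and were higher and 4 were lower, against 1.35% and 20.6% of all tested miRNAs. These were miR-322-5p (-0.93), miR-181c-5p (-0.65), miR-181a-5p (-0.50) and miR-23a-3p (-0.39). Under TMM it was 2 higher and 2 lower, against 4.93% and 8.52%. The list's median was -0.31 with library totals and -0.10 with TMM, beside -0.29 and -0.08 for all tested miRNAs.

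The second list holds 10 miRNAs known to target mRNAs of the HIF pathway, of which 5 were tested. The others, miR-20b-5p, miR-18a-5p, miR-429-3p, miR-138-5p and miR-135b-5p, had means of 0.625, 9.62, 15.4, 4.62 and 0.625 counts. With the reference scaling miR-155-5p, which targets Hif1a, had a log2 fold change of 1.06 (adjusted p = 1.63e-04 in edgeR). miR-31-5p, which targets the HIF-inhibiting hydroxylase Hif1an, was at 0.89 (adjusted p = 0.00209), and miR-199a-5p, a repressor of Hif1a in heart muscle cells, at 0.57 (adjusted p = 0.0326). miR-17-5p (0.06, adjusted p = 0.825) and miR-20a-5p (-0.38, adjusted p = 0.294), of the cluster that targets Hif1a, did not pass. These 3 of 5 stand beside 63.7% of all tested miRNAs that were higher at an adjusted p below 0.05. With library totals miR-20a-5p (-1.27, adjusted p = 0.017) and miR-17-5p (-0.84, adjusted p = 0.0178) were lower, 2 of 5 beside 20.6% of all tested miRNAs. The log2 fold changes of miR-155-5p (0.16), miR-31-5p (-0.01) and miR-199a-5p (-0.33) then did not pass. Under TMM 0 were higher and 1 lower at an adjusted p below 0.05, beside 4.93% and 8.52%. The list's median was 0.57 with the reference scaling and -0.33 with library totals, beside 0.61 and -0.29 for all tested miRNAs.

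**Figure D5:**
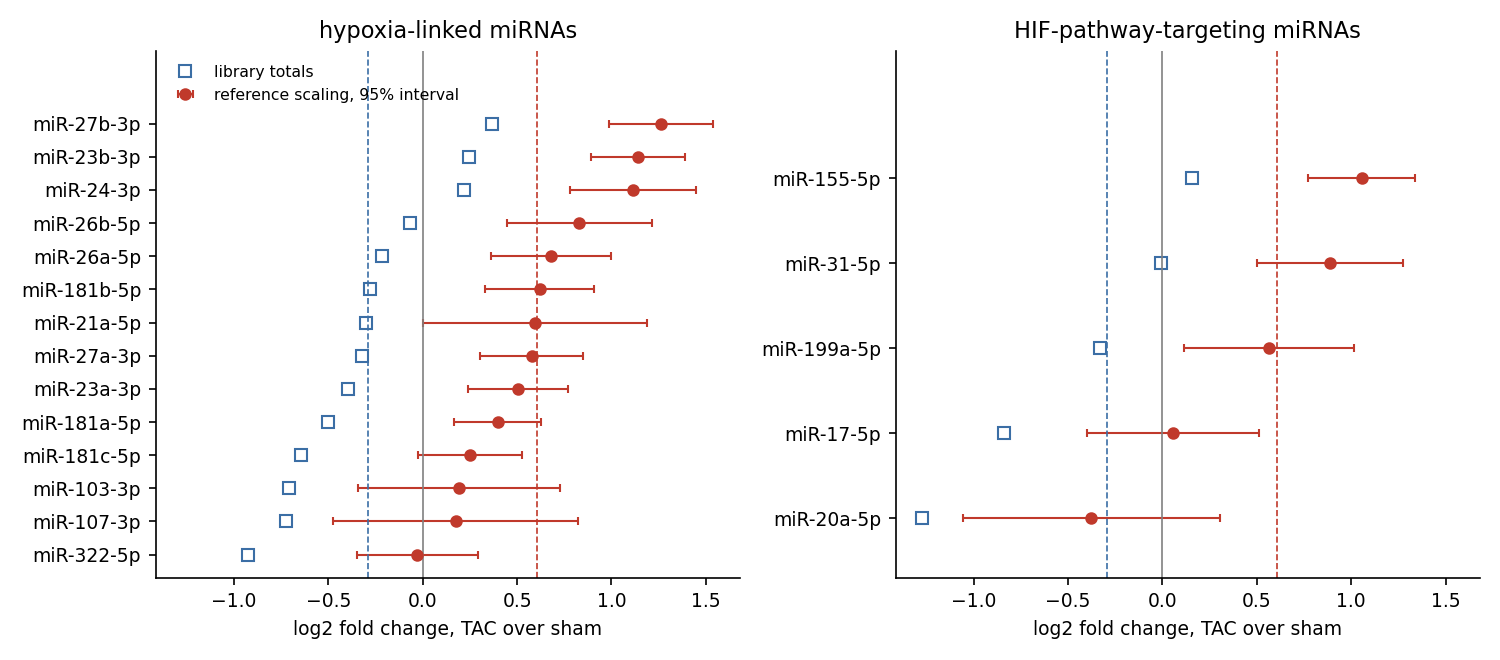
Log2 fold changes, TAC over sham, of the tested miRNAs reported to rise in hypoxia (left) and known to target the HIF pathway (right), with the reference scaling (red points, bars are 95% intervals) and with library totals (blue squares). Dashed lines are the medians of all 223 tested miRNAs, 0.61 and -0.29, and the members lie on both sides of them.

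The cell type label was checked against markers. All 5 cardiomyocyte miRNAs were counted in every library and summed to 160712 to 198133 CPM in sham and 194455 to 245941 in TAC, by library total. The higher TAC sums came from miR-1a-3p, with a mean of 108665 CPM in sham and 158119 in TAC. Means of miR-133a-3p (67356 and 62669) and miR-208a-3p (519 and 427) were lower in TAC. Those of miR-499-5p (719 and 733) and miR-208b-3p (41.3 and 72.6) were higher. Both endothelial miRNAs, the arms of miR-126a, were present too and summed to 49248 to 72051 CPM in sham and 29274 to 34557 in TAC, with no overlap. With the reference scaling, which uses miR-126a-3p itself, the endothelial sums of TAC were 54532 to 64375 and overlapped those of sham, and the cardiomyocyte sums of TAC were 362239 to 458149 and did not. This was not particular to muscle. The erythroid, the fibroblast and smooth muscle, and the epithelial sums also had no overlap on this scale. Of all tested miRNAs, 55.2% had groups that did not overlap on it, and 30.9% by library total. By library total again, the 4 leukocyte miRNAs gave 1195 to 2360 CPM in sham and 937 to 1332 in TAC, the 3 erythroid miRNAs 22385 to 26197 and 26724 to 35694, nearly all of it miR-486a-5p, which heart muscle also makes, and the 4 miRNAs of fibroblasts and smooth muscle 37623 to 44577 and 33967 to 38523. The 6 epithelial miRNAs were at 242 to 401 CPM in sham and 223 to 328 in TAC mice 1 to 3 but at 1406 in TAC mouse 4, and the 3 of pancreas acinar cells at 14.1 to 33.0, 15.3 to 27.2 and 88.9, miR-217-5p being at 0 to 3 counts. Without TAC mouse 4 the log2 fold change of miR-210-3p was 0.63 with the reference scaling (adjusted p = 0.0653 in edgeR) and -0.32 with library totals (adjusted p = 0.398). miR-210 is made by many cell types, and the part of non-muscle RNA in its level was not tested. In bulk RNA, fewer cells of a type and less RNA per cell cannot be told apart.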

How the data were processed

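Small RNA libraries of isolated cardiomyocytes from 4 sham and 4 TAC mice were analysed, with groups from the sample labels. The authors deposited, for each library, whole-number tag counts per mature miRNA without normalization. The aligner, the miRNA reference and the handling of tags that fit several miRNAs are not given in the sources used here. The submitters' processing notes name mm10 and StringTie 1.3.1.

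From the deposited counts, CPM by miRNA total and reference-scaled CPM were computed. R 4.3.3 with edgeR 4.0.16 (glmQLFit and glmQLFTest, group as the only term) tested the 223 miRNAs with a mean above 100 counts, and the 409 above 10 for the 5p arm, adjusted by Benjamini-Hochberg. TAC library sizes were multiplied by 0.537, the geometric mean TAC-to-sham ratio of miR-126a-3p and miR-19b-3p. Intervals are 95%, from edgeR's degrees of freedom. Single values were compared by two-sided exact permutation tests over 70 arrangements in Python 3.11.15. DESeq2 1.42.0 was an alternative. Over all 28 pairs of libraries, none held the same values or differed by no more than sampling noise (chi-square per degree of freedom of at least 103). The members, lists and tests were chosen with earlier results of these data known. Named miRNAs are the members, the lists, the references, 5 by correlation and 6 by abundance. mm10 and GRCm38 are the same build.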

Additional observations from a re-analysis of the deposited data

Results flagged for a closer look

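In groups of 4 mice, the library farthest out was compared with the rest by Dixon's ratio at its 95% critical value, over 52 sides of groups in all, and chance alone marks about 1 group in 20. For miR-210-3p no library passed, and TAC mouse 1, the highest of its group, had a ratio of 0.75. The 5p share of miR-210 was 5.72% in TAC mouse 2, against 2.63% to 2.95% in the other TAC mice. The epithelial miRNAs summed to 1406 CPM in TAC mouse 4 against 223 to 328 in the others, and those of pancreas acinar cells to 88.9 CPM against 15.3 to 27.2. The endothelial miRNAs summed to 29274 CPM in TAC mouse 4 against 33782 to 34557 in the others. The erythroid miRNAs summed to 35694 CPM in TAC mouse 1 against 26724 to 27990. This sum is nearly all miR-486a-5p, which heart muscle also makes, and the red-cell miRNAs of the same list were at their lowest in that library, miR-144-3p at 24.3 CPM and miR-451a at 16.5 CPM.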

How the results depend on the processing

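miR-210-3p reversed from 0.53 to -0.14 with TMM, -0.36 with library totals and -0.11 with DESeq2's own size factors. With library totals it was -0.24 without sham mouse 1, -0.32 without TAC mouse 4 and -0.38 with the replicate number as a block, which were added after seeing the data. Left-out libraries gave 0.30 to 0.77. The 84 calls became 13 with TMM, 24 with library totals (23 without sham mouse 1, 23 without TAC mouse 4, 20 with the block), 14 with DESeq2's own size factors, 129 with no filter, 45 at a fold above 2 and 144 at any fold, and 60 to 107 with 1 library left out. miR-210-5p, at -0.02, was 0.09 with the block and -0.40 to 0.60 with 1 library left out. The exact tests of CPM (-0.57 to -0.24 by library total, 0.31 to 0.73 reference-scaled), of the 5p share (-2.15 to -0.30 percent points) and of the ratio to cardiomyocyte miRNAs (-0.63 to -0.29) kept their direction with each library left out, and none passed 0.05. The methods speak of 4 pairs of mice without saying what a pair shared or whether the replicate numbers mark it. The numbers were not used as pairs, since same-numbered libraries correlated at 0.17, -0.37, 0.31 and -0.22 in their deviations, and 1 of the 4 sham libraries correlated best with its own number. With the block, miR-210-3p was 0.52 (adjusted p = 0.0759 in edgeR) and 79 miRNAs were called. For miR-210-3p the spread between animals exceeds counting error and limits the precision, and for miR-210-5p, at 11.25 counts a library, both do.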

Other observations

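Within each group, miR-144-3p and miR-451a, which are made almost only by red cells, were lowest in the library with most miR-210-3p, a comparison made after the values were seen. Across the groups this did not hold, since both were higher in sham mouse 1 than in TAC mouse 2. miR-144-3p was at 327 CPM in sham mouse 1 against 647 to 1078 in the other sham mice, and at 24.3 CPM in TAC mouse 1 against 141 to 379 in the other TAC mice. miR-451a was at 86.4 CPM in sham mouse 1 against 257 to 404 in the other sham mice, and at 16.5 in TAC mouse 1 against 55.0 to 162 in the other TAC mice. Within sham the order did not continue, since sham mouse 3 had the second highest miR-210-3p and the highest miR-144-3p. Whether the 2 patterns are linked was not tested.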
